A study of Mus musculus with 9 samples.

Results

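Quadriceps femoris, a thigh muscle, was compared between 2 groups of female C57Bl/6 HT transgenic mice in which a self MHC class I transgene had been switched on for about 2 weeks at different ages. The comparison used 6 of the 9 arrays of the series, and its members are the 34958 of 45101 probe sets that name 1 gene. Of these genes, 9697 had a probe set with a log2 value above 5 in at least 3 arrays and were tested. Early mice (n = 3) had doxycycline, the antibiotic that keeps the transgene silent, stopped at 21 days of age and were killed at 35 days. Late mice (n = 3) had it stopped at 35 days and were killed at 50 days according to their age label, or at 49-50 days according to the protocol. Control mice (n = 3) were kept on doxycycline throughout and killed at 35 days, and serve only as a background level. The strain label is the same in all 3 groups, whereas the protocol calls the controls littermates with a single transgene. The sources used here do not give the promoter that drives the transgene, or say whether animals were pooled. No 50-day control is among the samples, so age at death and age at induction cannot be told apart in any difference between early and late muscle. The labels do not say whether the replicates of a group share a litter or a day, so each p reflects only how these samples spread.

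MHC class I molecules are made in the endoplasmic reticulum (ER), where a heavy chain is inserted through the translocon, glycosylated, folded by chaperones and disulfide isomerases, and joined to beta-2 microglobulin and a peptide before it leaves in vesicles for the Golgi. When unfolded protein builds up there, the sensors IRE1, ATF6 and PERK start the unfolded protein response, which raises chaperones, folding enzymes, degradation factors and the transport machinery. In muscle of patients with myositis, and in mice that overexpress class I in muscle fibres, class I accumulates in the ER. Young muscle is still growing by adding contractile protein and matrix, and its gene expression changes with age.

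All values are log2 expression, where a step of 1 is a doubling, and differences are early minus late ± SE from a limma fit of 3 group means to all 9 arrays. A gene was called at a Benjamini-Hochberg adjusted p under 0.05 over the 9697 genes. Array medians lay between 3.41 and 3.45, and the 3′ minus 5′ difference of the Gapdh control probes, a sign of RNA integrity, between -0.18 and 0.02. The muscle fibre genes Ckm, muscle creatine kinase, and Acta1, skeletal alpha actin, were at 15.36 or above and at 15.81 or above in every array, near the top of the scale, as the tissue label requires. Early 3 stood apart from its group. After each gene was centred on its mean over the 9 arrays, early 1 and early 2 correlated at 0.70 across genes, whereas early 3 correlated with them at -0.19 and -0.09. Late 1 correlated with late 2 at 0.28 and with late 3 at 0.12, against 0.45 between those last 2. Correlations of this kind are across genes, which are not independent, and describe these arrays only. The results that these 2 arrays change most are given with and without them.

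H2-K1, a classical class I heavy chain gene, was far above control in every induced array, which checks the labels. It read 14.67, 14.64 and 14.69 in the early arrays, 14.20, 13.11 and 14.31 in the late arrays, and 10.88, 10.47 and 10.21 in the controls. The early arrays all lay above the late ones, and the difference of 0.79 ± 0.31 did not pass the test (adjusted p = 0.112). Its other 3 probe sets differed by 1.04, 3.29 and 0.14, and of these the second, at 11.52, 12.52 and 11.75 in early against 8.30, 7.19 and 10.41 in late arrays, was called when every probe set was tested on its own (adjusted p = 0.0326). Class I genes are close in sequence and their probe sets can read each other's transcripts. H2-D1, the other classical heavy chain tested, differed by 0.43 ± 0.36 (adjusted p = 0.415) and its groups overlapped. H2-K1 passed with arrays weighted by their fit (0.95, adjusted p = 0.0415) and with the mean of its probe sets (1.32, adjusted p = 0.049).

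Early and late muscle differed in 1119 genes, 11.5% of those tested. Of these, 515 (5.31%) were higher and 604 (6.23%) lower in early muscle, and 277 and 224 of them differed at least 2-fold. The groups did not overlap for 3111 genes, 32.1% of those tested, with 13.7% higher and 18.3% lower in early. The median difference over all genes was -0.03. With each array centred on its median the split turned, to 631 higher and 489 lower, so the share of higher calls moved from 46.0% to 56.3%. Only 38 genes were called when the 6 induced arrays were fitted alone, all of them among the 1119, and 29 of these were higher in early. The median SD of a gene was 0.148 among the controls, 0.273 among the early and 0.223 among the late arrays, so the count rests in part on the narrow spread of the control arrays. Without early 3 the count was 2959 (15.9% of genes higher and 14.7% lower, the background for every list count given without early 3), and without late 1 it was 294 (1.65% and 1.38%). Leaving out any other induced array gave 143 (late 2), 160 (early 2), 214 (early 1) or 727 (late 3). Of all genes, 0.835%, 1.02%, 1.43% and 3.33% were then higher and 0.639%, 0.629%, 0.773% and 4.17% lower. Leaving out a control gave 310 (control 2), 395 (control 3) or 499 (control 1), with 1.75%, 2.23% and 2.76% higher and 1.44%, 1.85% and 2.38% lower. These shares, and 5.31% and 6.23% with all arrays, are the background for the list counts below. A block on replicate number in the 6 induced arrays left 0 genes called by limma; with the block over all 9 arrays there were 1114 (5.57% higher and 5.92% lower). At an unadjusted p under 0.05 there were 3313 genes. Of the called genes, 104 were called in each of the 9 fits that left out 1 array, 68 of them higher and 36 lower in early, and these are named below as kept in all 9. Another 658 were called in 2 or fewer of the 9, and for most genes named below that were not kept in all 9 the number is given as a count of the 9 fits.

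**Figure D1:**
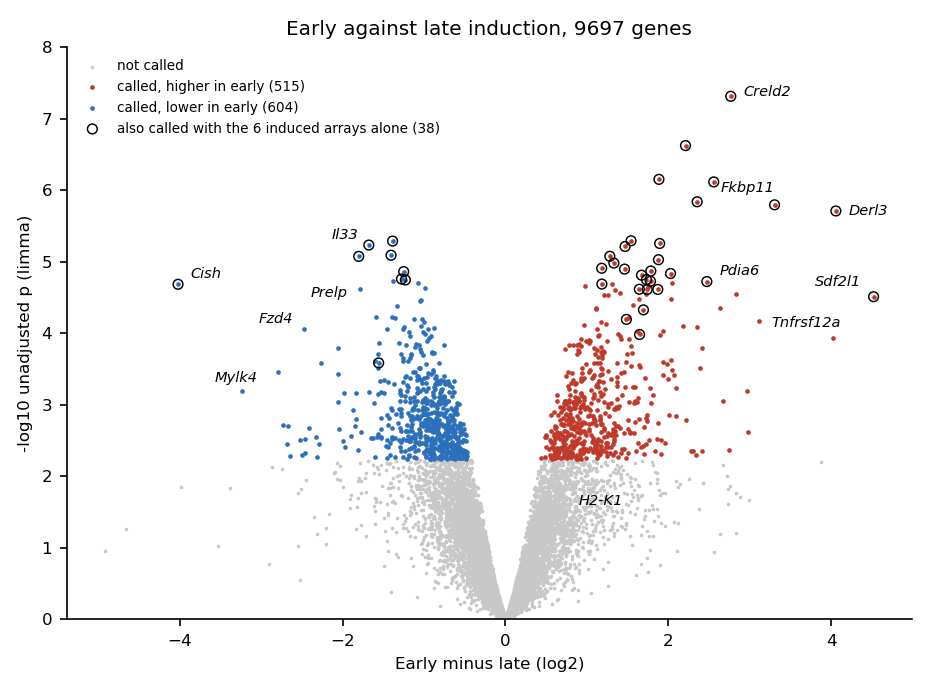
Early minus late difference (log2, horizontal) of the 9697 genes tested against -log10 of the unadjusted p from limma (vertical). Grey points were not called, red points were called higher (515) and blue points called lower (604) in early muscle, and black rings mark the 38 genes also called with the 6 induced arrays alone. The ringed points are mostly on the right (29 of 38), and H2-K1 lies among the grey points.

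The genes with the largest rises fell into those that were high in all 3 early arrays and those that were high in 2. Sdf2l1, a subunit of an ER chaperone complex, led with 10.32, 10.30 and 10.58 in the early arrays against 5.38, 4.86 and 7.40 in the late arrays, a difference of 4.52 ± 0.58 (23-fold, adjusted p = 0.00627). Controls were at 5.94, 5.26 and 4.78, so late 1 and late 2 sat at control level and late 3 above it. Manf, a secreted ER stress protein that protects cells, read 13.77, 14.13 and 14.26 against 11.10, 10.50 and 12.06 (2.83 ± 0.36, adjusted p = 0.00608). Creld2, an ER-resident protein induced by ER stress, had the smallest p of all genes, with 11.38, 11.61 and 11.27 against 8.57, 8.47 and 8.90 (2.77 ± 0.16, adjusted p = 0.000474). The same placement, with early 3 as high as early 1 and early 2, was seen for Hyou1, an ER chaperone of the Hsp70 family (2.63), Pdia6, a disulfide isomerase (2.47), and Mydgf, a growth factor that is retained in the ER and secreted (2.56). All of these were kept in all 9 fits that left out 1 array.

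Tnfrsf12a, the receptor of the cytokine TWEAK, graded across the early arrays, at 12.81, 12.20 and 11.27 against 8.10, 9.54 and 9.30 in late arrays (3.11 ± 0.44, adjusted p = 0.00993). Its controls were at 9.05 to 9.37, so each early array exceeded every control and late array. Tmem158, a Ras-induced membrane protein, read 10.15, 9.06 and 6.75 in early and 5.17, 5.72 and 6.15 in late arrays (2.98 ± 0.71, adjusted p = 0.0355). Hbegf, an EGF-like growth factor, read 11.61, 10.16 and 8.17 against 7.64, 6.90 and 7.18 (2.74 ± 0.72, adjusted p = 0.0451), and Plekho1 read 9.49, 8.85 and 6.52 against 5.45, 5.99 and 6.17 (2.42, adjusted p = 0.0455). In these last 3 genes early 3 lay near control level. Their differences therefore rest on early 1 and early 2 and on late values below the controls, and each was called in 1 of the 9 fits that left out an array, the one without early 3. Plekho1 was also not called with the replicate block (adjusted p = 0.0535).

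In Myog and A930003A15Rik the late group lay further from control than the early group. Myog, the myogenic transcription factor that also responds to loss of nerve supply, read 9.21, 8.31 and 7.84 in early, 5.55, 6.78 and 5.80 in late and 8.84 to 8.94 in control arrays (2.41 ± 0.39, adjusted p = 0.0131). A930003A15Rik read 10.04, 10.29 and 8.01 in early against 4.36, 5.98 and 5.96 in late arrays, with controls at 8.27 to 8.46 (4.02 ± 0.62, adjusted p = 0.012). Early 1 and early 2 of A930003A15Rik were above every control. Both genes were kept in all 9 fits. Since controls were as old as the early mice, low late values such as these cannot be told apart from a change with age.

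Among the largest falls, early 1 and early 2 were low and early 3 was near control in most genes. Mylk4, a myosin light chain kinase, read 7.91, 8.44 and 10.80 in early against 11.96, 12.46 and 12.43 in late arrays, with controls at 10.48 to 11.08 (-3.24 ± 0.63, adjusted p = 0.0225). Slc16a10, an aromatic amino acid transporter, read 4.71, 4.81 and 7.50 against 8.46, 8.36 and 8.39 (-2.74 ± 0.63, adjusted p = 0.033). Adhfe1, a mitochondrial hydroxyacid dehydrogenase, read 6.81, 7.77 and 9.83 against 11.00, 10.82 and 10.58 (-2.67 ± 0.62, adjusted p = 0.0333). Deptor, an inhibitor of mTOR, Egflam, an extracellular matrix protein, Pm20d2, Crhr2, a corticotropin-releasing hormone receptor, and Cdc14a, a phosphatase, had the same form, with early 3 the highest early array and differences of -2.29, -2.33, -2.41, -2.52 and -2.06. Fzd4, a Wnt receptor, was the one of the 12 largest falls kept in all 9 fits, at 7.02, 7.37 and 8.24 against 9.40 to 10.68 (-2.48 ± 0.37, adjusted p = 0.0108), with every early array below the controls at 9.37 to 9.44. Tmem100, a membrane protein of endothelial cells, also lay below every control in each early array (-2.79 ± 0.50, adjusted p = 0.0186). Mylk4, Cdc14a and Tmem100 were called in 5, 4 and 6 of the 9 fits, and Slc16a10, Adhfe1, Deptor, Egflam, Pm20d2 and Crhr2 in 1, the one without early 3. The mean of their probe sets gave -1.65 for Cdc14a (adjusted p = 0.0711) and -1.44 for Slc16a10 (adjusted p = 0.0313). Ccn2, connective tissue growth factor, was instead high in late arrays, at 12.25, 10.89 and 9.26 against 8.53, 8.29 and 8.08 (-2.50, adjusted p = 0.048), and was not called without early 3 (adjusted p = 0.0536) or without late 1 (adjusted p = 0.0943), nor with the replicate block (adjusted p = 0.0662). Ctxn3 was highest in late 1, at 11.42 against 9.08 and 9.12 in the other late arrays (-2.68, adjusted p = 0.0411, and 0.0762 without late 1). It was called in 2 of the 9 fits and not with the replicate block (adjusted p = 0.0585).

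**Figure D2:**
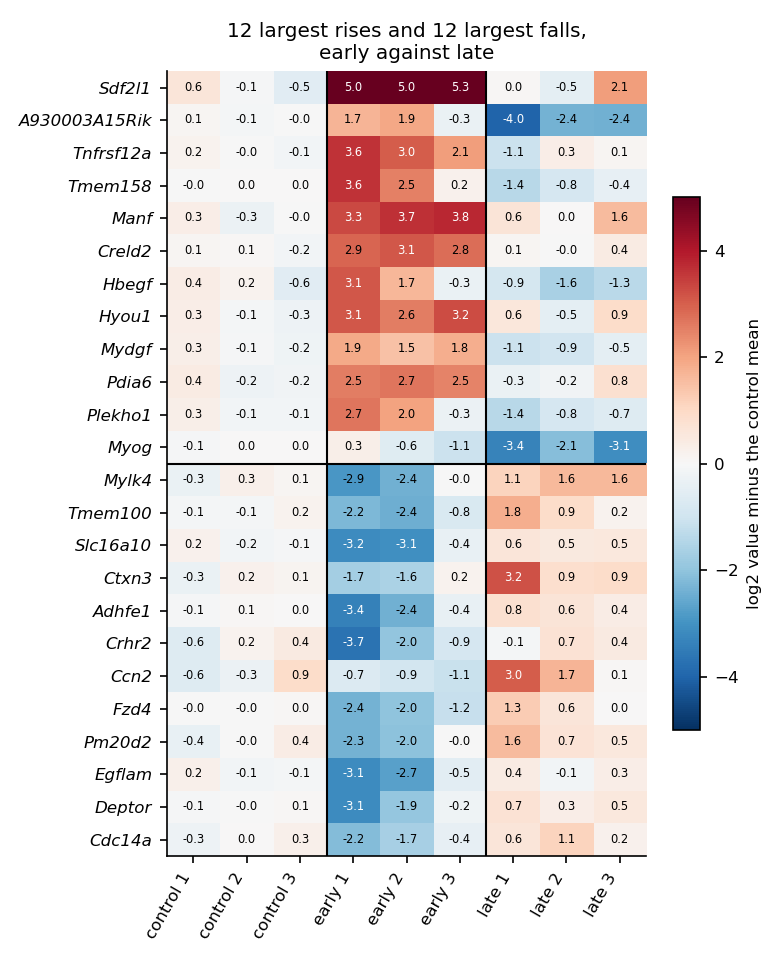
Log2 value minus the control mean (colour and printed number) of the 12 largest rises, above the horizontal line, and the 12 largest falls among called genes with both group means at or above 5, in each of the 9 arrays. Sdf2l1, Manf, Creld2, Hyou1, Mydgf and Pdia6 are raised in all 3 early arrays, while Tmem158, Hbegf, Plekho1 and most falls are near 0 in early 3.

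The largest called differences with 1 of the 2 group means under 5 were taken separately, since their size depends on the floor. Fkbp11, a proline isomerase of the secretory pathway, read 7.85, 7.62 and 7.85 in early against 3.86, 4.42 and 5.12 in late arrays (3.31 ± 0.30, adjusted p = 0.0026). Impdh1, an enzyme of guanine nucleotide synthesis (1.89), and Smyd5, a methyltransferase (1.90), were high in all 3 early arrays and kept in all 9 fits. Emilin1, an elastic fibre protein, read 8.42, 7.07 and 6.12 against 3.82, 3.87 and 5.02 in late arrays, with controls at 6.33 to 7.46, and was called in 5 of the 9 fits. In the other direction Cish, a suppressor of cytokine signalling that STAT5 induces, read 2.90, 3.18 and 4.97 in early, 7.47, 7.74 and 7.90 in late and 5.95, 6.60 and 6.84 in control arrays (-4.02 ± 0.49, adjusted p = 0.00578). The controls thus lay between the groups, and Cish was kept in all 9 fits and with the 6 induced arrays alone. Vit, a matrix protein, Sh3rf2, Hlf, a clock output factor, and Jade2 were called lower (-1.53, -2.46, -2.64 and -2.32), in 5, 1, 2 and 2 of the 9 fits. Jade2 was highest in late 1, at 8.53 against 6.62 and 5.46, and had adjusted p = 0.0595 without that array. With values under 5 raised to 5 neither Jade2 nor Hlf was called (adjusted p = 0.0742 and 0.0513). Neither was called with the replicate block (adjusted p = 0.0624 and 0.0534), and Jade2 was not when every probe set was tested on its own (adjusted p = 0.0503).

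Among all lists with at least 3 genes tested, the 5 of the secretory pathway had the largest shares of genes called higher in early muscle. Over 5 lists covering lumenal chaperones, isomerases, ER-associated degradation, translocation with N-glycosylation, and ER to Golgi traffic, 75 of 149 tested genes (50.3%) were called higher and 2 lower, beside 5.31% and 6.23% of all genes. The median difference over the 149 genes was 0.70 against -0.03 over all genes. A further 6 listed genes were not tested, and 2 of the tested genes, Derl3 and Alg12, passed the filter through early arrays alone, where they are high; without these 2 the count was 73 of 147. Above the highest control lay 117, 122 and 117 of the 149 in early 1, 2 and 3, where 37.3%, 34.3% and 20.9% of all genes did so. In late 1, 2 and 3 the counts were 60, 36 and 68 (40.3%, 24.2% and 45.6%), where 37.6%, 34.7% and 33.5% of all genes did so. Early 3 thus stood with its group in these genes, with a median of 0.67 over the control mean against 0.71 in early 1 and 0.68 in early 2. The late medians were 0.02, -0.12 and 0.13. In bulk muscle, a change in the cells of a type and a change in RNA per cell cannot be told apart. The lists were chosen with results of these data known, so the counts describe them and are not independent support.

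Of 23 lumenal chaperones and their partners tested, 15 were called higher and 0 lower, with a median of 1.08. Hspa5 (BiP), the main Hsp70 chaperone of the ER, read 14.98, 15.27 and 15.17 in early against 13.54, 12.84 and 14.08 in late arrays, with controls at 12.63 to 13.10 (1.65 ± 0.29, adjusted p = 0.0173). Dnajb11, a co-chaperone that feeds clients to BiP, read 11.22, 11.02 and 10.71 against 9.33, 8.80 and 9.57 (1.75 ± 0.22, adjusted p = 0.00578). The lectin chaperones Calr and Canx, which hold newly glycosylated class I heavy chains, differed by 1.42 ± 0.25 and 0.79 ± 0.15 (adjusted p = 0.0189 and 0.0223), and Hsp90b1 (GRP94) by 1.37 ± 0.26 (adjusted p = 0.0201). Uggt1, which marks unfinished glycoproteins for another round of folding, differed by 1.26, and Cnpy3, a co-chaperone of GRP94, by 1.21. For each of these genes the early arrays did not overlap the late ones. Hspa5 was called in 8 of the 9 fits, Calr, Canx and Hsp90b1 in 6, and the others named were kept in all 9. The count of 15 was 7 without early 2, 8 without late 2, 9 without early 1, and 2 with the 6 induced arrays alone.

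Isomerases followed, with 13 of 25 called higher and 1 lower, and a median of 0.76. Pdia4, a multidomain disulfide isomerase, read 8.16, 7.73 and 7.33 in early against 5.30, 5.31 and 5.55 in late arrays (2.36 ± 0.21, adjusted p = 0.0026). Pdia3, which forms disulfides in class I heavy chains within the peptide-loading complex, read 12.47, 12.58 and 12.28 against 10.69, 10.96 and 11.22 (1.49 ± 0.21, adjusted p = 0.00961). Txndc5 was highest in early 3, at 10.17 against 9.58 and 9.72 in the other early arrays and 7.86 to 8.51 in late arrays (1.64). The gene called lower was Tmx3, a membrane-bound isomerase (-0.71, in 2 of the 9 fits, and -0.43 with the mean of its probe sets). The number called higher was 5 without late 2 and 6 without control 2, control 3, early 1 or early 2, and 7 without late 1. Pdia3, Calr and Canx were also the 3 called genes among 12 tested for class I peptide supply and loading, and 1 of these was called without early 1, early 2 or late 2.

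Of 27 tested genes of ER-associated degradation, 9 were called higher and 0 lower, with a median of 0.50. Derl3, part of the channel through which misfolded proteins leave the ER, was dim in all control and late arrays, at 2.17 to 2.26, and read 6.45, 7.13 and 5.32 in early arrays (4.06 ± 0.37, adjusted p = 0.00272). Its control and late values lie under the floor of 5, so the size of its difference is uncertain. With values under 5 raised to 5 the difference was 1.30 and was not called (adjusted p = 0.052). Syvn1, the ubiquitin ligase of the pathway (also called HRD1), read 10.13, 10.99 and 11.37 against 8.63, 8.92 and 9.61 (1.78 ± 0.34, adjusted p = 0.0218), and its partner Sel1l differed by 0.83 ± 0.15 (adjusted p = 0.0198). Derl2, a relative of Derl3, read 11.68, 11.09 and 10.94 against 9.66, 9.57 and 9.79 (1.57 ± 0.21, adjusted p = 0.00742). Herpud1, which gathers the ligase complex, was in contrast also above control in late arrays, at 11.67, 11.32 and 11.90 against 10.71 to 10.93, and at 12.06, 12.63 and 13.06 in early arrays (0.95, adjusted p = 0.0462). Syvn1 and Sel1l were called in 6 of the 9 fits and not without late 1 (adjusted p = 0.0582 and 0.0513), and Herpud1 in 2. Herpud1 was not called with the replicate block (adjusted p = 0.0525) or after quantile normalization (adjusted p = 0.0517). Without late 1 or late 2 the count of 9 was 2, without early 2 it was 3, without control 2 it was 5, and without early 3 it was 14.

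In translocation and N-glycosylation, 17 of 35 genes were called higher and 1 lower, with a median of 0.73. Sec61a1, the pore of the translocon, read 11.29, 11.28 and 11.46 in early against 9.67, 9.81 and 10.18 in late arrays (1.46 ± 0.17, adjusted p = 0.00578), and the lone gene called lower was its paralog Sec61a2 (-0.67, in 1 of the 9 fits and not with the replicate block). Ssr2, a subunit of the translocon-associated complex, read 10.79, 10.99 and 11.40 against 8.97, 9.22 and 9.62 (1.79 ± 0.21, adjusted p = 0.00578). In both Sec61a1 and Ssr2 the controls, at 10.41 to 10.72 and 9.87 to 9.98, lay above every late array, so that late muscle was below control as early muscle was above. Ddost, a subunit of the oligosaccharyltransferase, differed by 1.87 ± 0.23, Spcs3, of the signal peptidase, by 1.34, and Ostc by 1.23. Gmppb, which makes the mannose donor for glycosylation and belongs to none of the lists used here, was chosen after its values were seen as 1 of 33 genes called under all 21 other ways of fitting tried; it read 7.67, 7.81 and 7.95 against 5.69, 5.99 and 6.09. The count of 17 was 7 without early 2 or late 2, 10 without early 1, 11 without control 2, and 21 without early 3.

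Vesicle traffic between the ER and Golgi had 21 of 39 genes called higher and 0 lower, with a median of 0.69. Sec24d, a cargo adaptor of the COPII coat, read 8.38, 8.32 and 8.56 in early against 6.51, 7.0 and 6.82 in late arrays (1.64 ± 0.21, adjusted p = 0.00578). Sec22b, a SNARE that fuses ER-derived vesicles, read 10.92, 11.02 and 10.52 against 8.85, 8.97 and 9.0 (1.88 ± 0.21, adjusted p = 0.00571), and Copg1, of the COPI coat that returns proteins to the ER, read 11.36, 11.17 and 10.59 against 9.23, 9.24 and 9.43 (1.74). Coat subunits of both directions were called, among them Sec13 and Sec31a (1.12 and 0.93) and Copa, Copb1, Copb2, Cope, Copz1 and Copz2 (0.69 to 1.16). The 3 KDEL receptors, which retrieve ER residents, differed by 0.60 (Kdelr1), 1.12 (Kdelr2) and 1.08 (Kdelr3). The cargo receptors Tmed9 and Tmed3 differed by 1.31 and 1.72. Of the genes named here, Sec24d, Sec22b, Copg1, Tmed9 and Tmed3 were kept in all 9 fits, Sec13 was called in 8, Sec31a in 7, and the rest in 1 to 6. Copa and Copb1 were not called with the replicate block (adjusted p = 0.0563 and 0.0581) nor Kdelr1 when every probe set was tested on its own (adjusted p = 0.0532), and the mean of their probe sets gave 1.03 for Copg1 and 1.48 for Copa, both called. Without late 2 the count was 6, without early 2 it was 7, without early 1, control 2 or late 1 it was 10, and without control 3 it was 11.

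**Figure D3:**
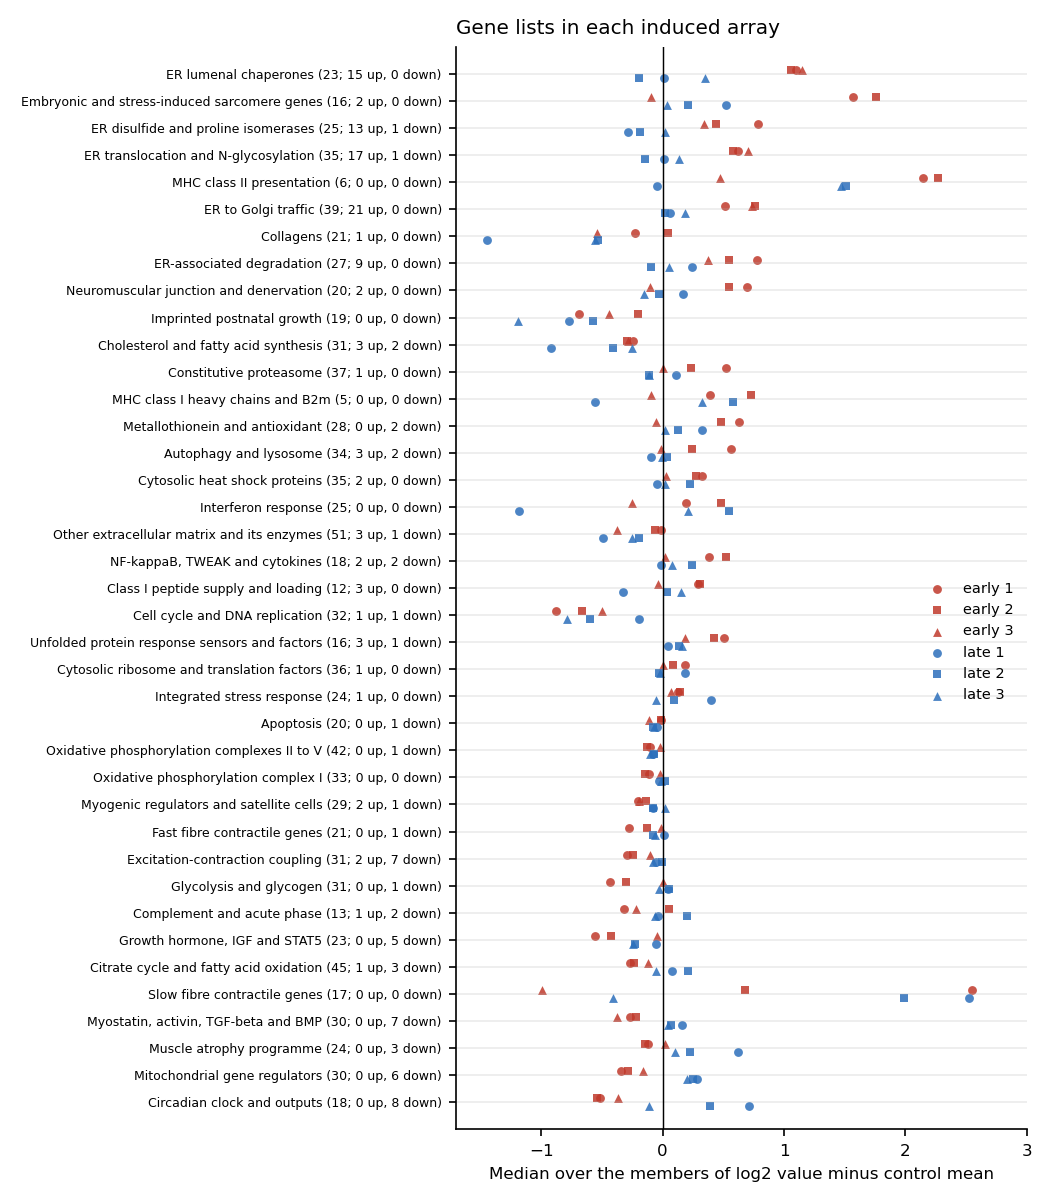
Median over each list's tested genes of the log2 value minus the control mean (horizontal), for each induced array, with lists ordered by their early minus late median. Numbers in brackets are genes tested and genes called higher (up) or lower (down) in early muscle. In the 5 secretory pathway lists all 3 early arrays lie to the right of all 3 late arrays, whereas in the sarcomere, denervation and proteasome lists early 3 lies within or below the range of the late arrays.

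The sensors themselves were mostly not called. Of 16 sensors and factors of the unfolded protein response, 3 were higher and 1 lower, with a median of 0.09. These are 18.8% and 6.25%, beside 5.31% and 6.23% of all genes. Creb3, a membrane-bound transcription factor of the ER, read 11.02, 10.95 and 9.82 against 8.69, 8.70 and 8.60 (1.94 ± 0.29, adjusted p = 0.0112), Atf6b differed by 1.0 and Traf2, an adaptor of IRE1, by 1.46. Nfyb, a subunit of the CCAAT-binding factor NF-Y, was the one lower, at 7.10, 7.13 and 8.07 against 9.19, 8.24 and 8.43 (-1.18, adjusted p = 0.0448), and was not called with the replicate block or with the mean of its probe sets (-0.65, adjusted p = 0.144). Creb3 was kept in all 9 fits, Atf6b was called in 3, and Traf2 and Nfyb in 1. Xbp1, the transcription factor that IRE1 activates by splicing, read 11.90, 12.71 and 12.70 against 11.22, 11.43 and 12.09 (0.86 ± 0.29, adjusted p = 0.0833). Ern1 (IRE1), Atf6 and Eif2ak3 (PERK) differed by -0.19, -0.24 and 0.44, and their probe sets do not report splicing, cleavage or phosphorylation. In the integrated stress response, which PERK feeds, 1 of 24 genes was called, Atf3 (1.84 ± 0.49, adjusted p = 0.0455), whose controls alone ranged from 4.91 to 6.94 and which was not called with the replicate block or without late 1 (adjusted p = 0.08). Atf4 and Ddit3 (CHOP) differed by -0.44 ± 0.30 and 0.61 ± 0.23, with adjusted p = 0.314 and 0.105. Without early 3, the integrated stress response had 5 genes called higher and 1 lower, where 15.9% and 14.7% of all genes were.

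The promoters of the secretory genes bear on members that moved together, and are shown for that reason. Windows from 250 bases before to 50 bases after each transcription start were taken from RefSeq on build GRCm38.p6 (32851 windows). The ER stress response element, ERSE, is known as the site that NF-Y and ATF6 bind jointly, and was searched on both strands as CCAAT and CCACG with 9 bases of any kind (N) between them. It was found in 39 windows (0.119%), of 37 genes, of which 15 were tested here. Of the 15, 10 were called higher and 1, Acacb of fatty acid synthesis, lower, with a median difference of 1.41. Of the 7904 tested genes with a window, 5.45% were called higher and the median was -0.03. Derl3 and Alg12, which passed the filter through early arrays alone, are among the 10. In addition, 9 of the 10 belong to the chaperone, isomerase or degradation lists, which were chosen with results of these data known. The counts therefore describe these genes and are not independent support. The other genes were Dnajc3, Spats2l, Pan2 and Adcy3, at 0.63, 0.51, -0.27 and -0.55 with none called. The elements of the 10 genes are given below in order of their early minus late difference, each read 5′ to 3′ from CCAAT on the strand named, with the fixed letters in capitals and the 9 free letters in lower case.
Derl3, chr10:75893242-75893260, minus strand: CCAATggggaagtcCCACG
Creld2, chr15:88819520-88819538, minus strand: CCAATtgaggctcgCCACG
Pdia6, chr12:17266491-17266509, plus strand: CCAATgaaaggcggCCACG
Syvn1, chr19:6046532-6046550, plus strand: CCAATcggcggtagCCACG
Alg12, chr15:88819520-88819538, minus strand: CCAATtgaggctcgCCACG
Hspa5, chr2:34772025-34772043, plus strand: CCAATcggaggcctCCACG
Calr, chr8:84847075-84847093, plus strand: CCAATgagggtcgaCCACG
Ero1b, chr13:12565682-12565700, minus strand: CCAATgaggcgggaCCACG
Hsp90b1, chr10:86705533-86705551, plus strand: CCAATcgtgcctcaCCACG
Hsp90b1, chr10:86705638-86705656, minus strand: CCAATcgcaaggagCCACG
Canx, chr11:50325800-50325818, minus strand: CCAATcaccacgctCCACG

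Creld2 and Alg12, which adds a mannose to the glycan precursor, lie head to head on chromosome 15 and share 1 element, which begins 126 bases before the Creld2 start and 220 before the Alg12 start, counted along each gene. Alg12 was dim, at 5.24, 5.74 and 5.74 in early against 3.66, 3.88 and 4.16 in late arrays (1.67 ± 0.20, adjusted p = 0.00578). It passed the filter through early arrays alone, and with values under 5 raised to 5 its difference was 0.57 (adjusted p = 0.0469). A second arrangement, ERSE-II (ATTGG and CCACG with 1 base between), was in 12 windows (0.0365%), and of 8 tested genes Dnajb11, Herpud1 and Nucb1, a calcium-binding protein of the Golgi, were called higher. Nucb1 was called in 1 of the 9 fits and not with the replicate block (adjusted p = 0.0563). The core TGACGTGG, bound by XBP1 and ATF6, was in 222 windows (0.676%), and 14 of 88 tested genes were called higher and 5 lower, with a median of 0.04. Overlaps of this core with the other elements were not removed. Of the 38 genes called in the chaperone, isomerase and degradation lists, 32 had a window, 9 an ERSE and 2 an ERSE-II, so most called genes had neither in these 300 bases. A match is a description of the letters and not of binding.

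Fkbp11, with a larger difference (3.31) than Creld2, has 2 windows in which neither exact element was found, and they are not printed. The 250 bases before the start are printed for Derl3 and Creld2, in which the ERSE is in capitals and reads as the reverse complement, and for Sdf2l1, the largest rise, in which neither exact element was found.
Derl3, chr10:75893148-75893397, plus strand: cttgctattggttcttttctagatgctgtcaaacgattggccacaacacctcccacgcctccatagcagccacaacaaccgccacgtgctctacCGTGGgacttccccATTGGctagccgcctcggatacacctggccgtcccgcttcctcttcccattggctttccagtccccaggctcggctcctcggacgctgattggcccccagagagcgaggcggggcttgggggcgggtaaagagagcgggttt
Creld2, chr15:88819396-88819645, plus strand: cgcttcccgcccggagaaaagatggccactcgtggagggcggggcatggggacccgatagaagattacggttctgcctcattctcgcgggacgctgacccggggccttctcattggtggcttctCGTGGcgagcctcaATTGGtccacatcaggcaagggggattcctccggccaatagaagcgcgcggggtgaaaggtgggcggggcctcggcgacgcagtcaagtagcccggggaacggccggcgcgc
Sdf2l1, chr16:17132384-17132633, minus strand: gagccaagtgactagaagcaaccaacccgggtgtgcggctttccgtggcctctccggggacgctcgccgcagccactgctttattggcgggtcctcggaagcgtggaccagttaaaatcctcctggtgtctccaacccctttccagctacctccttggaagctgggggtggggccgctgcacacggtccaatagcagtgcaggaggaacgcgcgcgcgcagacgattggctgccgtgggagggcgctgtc

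A second set of genes was high in early 1 and early 2 and at or below control in early 3. The genes were picked by that placement, so their results without early 3 describe them and are not independent support. Cd68, a lysosomal protein of macrophages, read 12.06, 11.17 and 6.23 in early, 7.17, 7.30 and 7.08 in late and 6.74 to 7.90 in control arrays. Its difference of 2.64 ± 1.25 was not called (adjusted p = 0.169), and without early 3 it was 4.43 (adjusted p = 0.000318). Ankrd1, a stretch-responsive muscle protein, read 11.99, 12.40 and 7.95 against 7.77, 8.20 and 7.89 (2.83 ± 0.97, adjusted p = 0.0833, and 4.24 with adjusted p = 5.58e-05 without early 3). Mustn1, a small nuclear protein of the musculoskeletal system, Myl4, an embryonic light chain, and Nfkbie, an inhibitor of NF-kappaB, had the same placement. Each of these 3 was at 8.91 or above in early 1 and early 2, and of the 9 fits it was called in the one without early 3. Over 16 embryonic and stress-induced sarcomere genes the median over control was 1.57 and 1.76 in early 1 and early 2, -0.10 in early 3 and 0.53, 0.21 and 0.04 in the late arrays, and the number called higher was 2 with all arrays, 9 without early 3 and 0 without late 2.

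**Figure D4:**
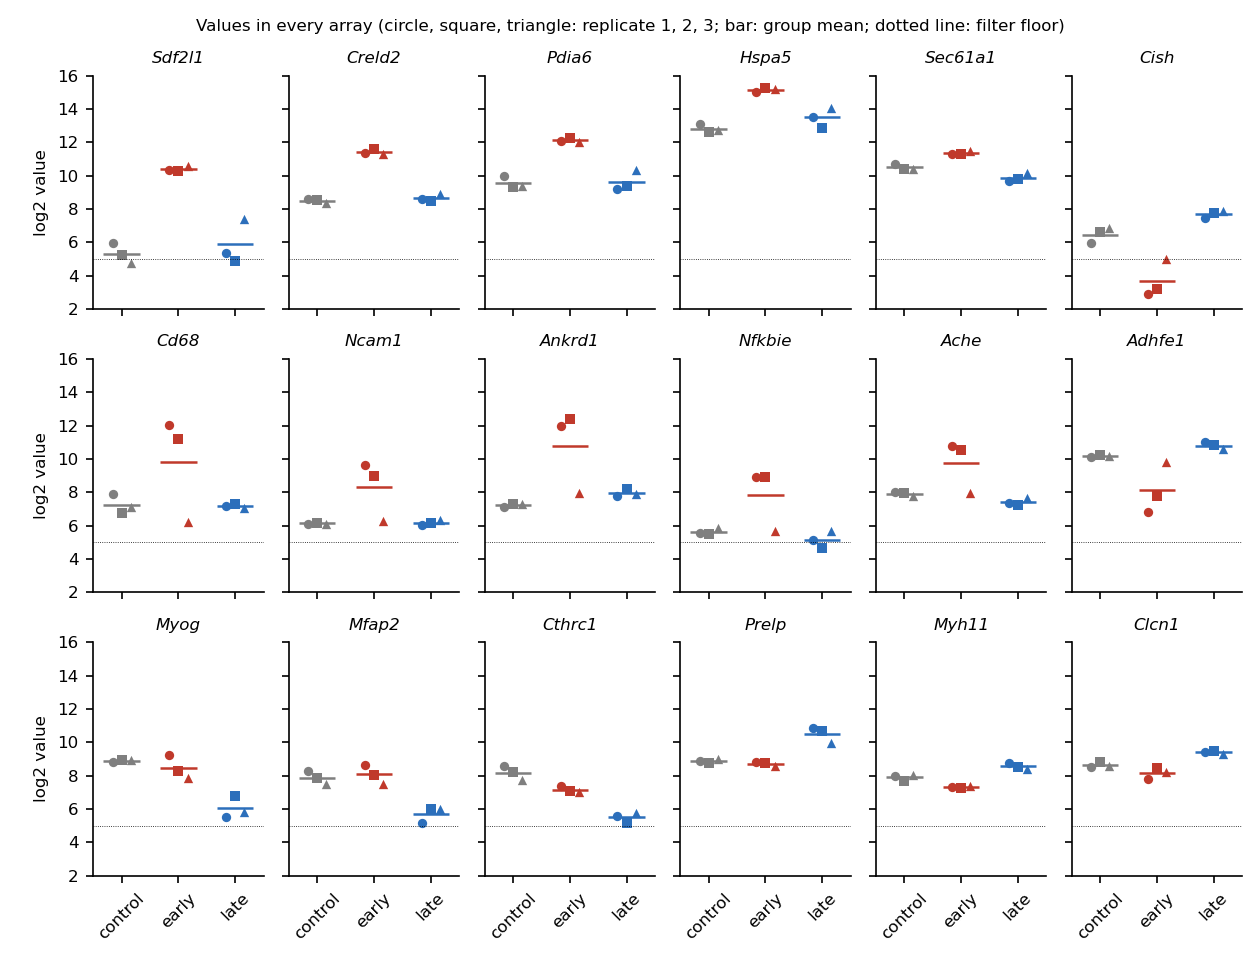
Log2 value of 18 genes in every array (control grey, early red, late blue; circle, square and triangle for replicates 1, 2 and 3; bars are group means, n = 3; the dotted line is the filter's floor of 5). The upper panels show genes in which all 3 early arrays lie to one side of the controls. The middle panels show genes in which early 3 (triangle) lies apart from early 1 and early 2. The lower panels show genes in which the late mean lies further from the control mean than the early mean does.

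Inflammatory signalling and antigen presentation were called in few genes. Of 18 genes of NF-kappaB, TWEAK and cytokines, 2 were higher, Tnfrsf12a and Relb, and 2 lower, Il15 and Vcam1, with a median of 0.19. Each share is 11.1%, beside 5.31% higher and 6.23% lower of all genes. Relb, the transcription factor of the noncanonical NF-kappaB branch, read 8.22, 8.08 and 5.89 in early against 4.36, 4.71 and 5.11 in late arrays (2.67 ± 0.54, adjusted p = 0.0251), and was called in 4 of the 9 fits but not without late 1 (adjusted p = 0.069). Il15, a muscle cytokine, read 5.37, 6.12 and 6.26 against 6.59, 7.42 and 7.90 (-1.39, adjusted p = 0.0376), and its controls at 5.91 to 6.10 were nearer the early arrays. Il33, an alarmin of stromal cells outside these lists, was chosen after its values were seen as 1 of 33 genes called under all 21 other ways of fitting tried, at 5.77, 5.61 and 5.95 against 7.52, 7.65 and 7.20 (-1.68 ± 0.18, adjusted p = 0.00498). Il15 and Vcam1 were called in 2 of the 9 fits, and Vcam1 was not with the replicate block. Without early 3, 8 genes of the NF-kappaB list were called higher. None of 25 interferon response genes was called with all arrays (limma; 3 higher without early 3, below the share of all genes, and 1 lower without late 1), and their median was 0.20. Both groups were split, with medians over the control mean of 0.19, 0.48 and -0.25 in early and -1.18, 0.55 and 0.21 in late arrays. In late 1, 22 of the 25 lay below every control, where 36.8% of all genes did so. In late 2, 22 lay above every control, where 34.7% of all genes did so. Class II presentation, chiefly a function of professional antigen-presenting cells, had 0 of 6 genes called by limma with all arrays, with a median of 0.72. Without early 3, 2 were called higher, and without both early 3 and late 1, 6 were. That pair was chosen after seeing the data, and 16.3% of all genes were called higher without it. H2-Aa, a class II alpha chain, read 12.13, 12.17 and 10.30 in early, 9.87, 11.59 and 11.49 in late and 9.69 to 10.20 in control arrays. Early 3 and late 1 were thus near control and the other induced arrays above it, so a count without those 2 is not independent support.

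Genes of the neuromuscular junction and of denervation had 2 of 20 called higher, Myog and Ache, with a median of 0.48. Ache, acetylcholinesterase, read 10.81, 10.55 and 7.95 in early, 7.37, 7.22 and 7.68 in late and 7.78 to 8.0 in control arrays (2.35 ± 0.63, adjusted p = 0.0473). Ncam1, an adhesion molecule re-expressed on denervated fibres, read 9.62, 9.0 and 6.30 against 6.04, 6.18 and 6.34 (2.12 ± 0.70, adjusted p = 0.0762). Chrna1, an acetylcholine receptor subunit, differed by 1.59 (adjusted p = 0.119) with 12.40, 12.05 and 9.58 in early arrays. In these genes early 3 matched the late arrays and controls, Ache was called in 1 of the 9 fits, and without early 3 11 of the 20 were called higher, while with the replicate block 1 was. Without early 3, 15.9% of all genes were called higher. Among 29 myogenic genes, Mymk, which fuses myoblasts, was called higher in early, at 4.96, 5.45 and 4.98 against 3.90, 3.92 and 4.04, with controls above both at 6.26 to 6.83 (1.18 ± 0.19, adjusted p = 0.0137). Only early 2 was above 5 among its early and late values, and with values under 5 raised to 5 the difference was 0.15 (adjusted p = 0.587). Met, the hepatocyte growth factor receptor of satellite cells, was lower (-1.23 ± 0.23, adjusted p = 0.0195). Mymk and Met were called in 8 and 6 of the 9 fits, and without early 3 the myogenic list had 6 higher and 7 lower. Flnc, a Z-disc filamin, was higher, at 13.19, 13.06 and 12.11 against 11.50, 11.75 and 11.62 (1.16, adjusted p = 0.0313, and 0.0762 without late 1), and was called in 1 of the 9 fits.

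Several genes of growth signalling were called lower in early than in late muscle. In the growth hormone, IGF and STAT5 list 0 of 23 genes were higher and 5 lower (21.7%, beside 6.23% of all genes), with a median of -0.25. Ghr, the growth hormone receptor, read 10.87, 11.31 and 12.11 in early against 12.44, 12.65 and 12.66 in late arrays (-1.15 ± 0.27, adjusted p = 0.0354), and its kinase Jak2 read 7.28, 8.10 and 8.79 against 9.23, 9.62 and 9.50 (-1.39 ± 0.33, adjusted p = 0.0341). Stat5b, the transcription factor below them, read 8.48, 9.25 and 10.69 against 11.77, 11.07 and 11.03 (-1.82, adjusted p = 0.0449), and its target Cish is given above. Controls of Ghr and Stat5b, at 12.39 to 12.47 and 10.63 to 10.65, lay near the late arrays and near early 3. Pik3r1, a regulatory subunit of PI3 kinase, was lower with a high value in late 1 (-1.36, adjusted p = 0.0491, and 0.0513 without late 1), and was not called with the mean of its probe sets (adjusted p = 0.0519) or with every probe set on its own (adjusted p = 0.0508). Igf1 differed by -0.16 ± 0.42 (adjusted p = 0.806). Pik3r1 was called in 2 of the 9 fits and Ghr, Jak2 and Stat5b in 1, while Cish was kept in all 9. Ghr was not called without shared probe sets (adjusted p = 0.0595), and Stat5b differed by -0.98 with the mean of its probe sets. The count was 1 without any one of control 1, control 2, control 3, early 1, early 2, late 1 or late 2, 2 without late 3, and 8 without early 3. With the replicate block Stat5b was not called, and 2 genes of the list were higher.

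In the myostatin, activin, TGF-beta and BMP list 0 of 30 were higher and 7 lower (23.3%, beside 6.23% of all genes), with a median of -0.38. Acvr1b, a type I activin receptor, read 7.93, 7.88 and 8.75 in early against 10.03, 9.67 and 9.54 in late arrays, with controls at 9.59 to 9.82 (-1.56 ± 0.24, adjusted p = 0.0127), and was kept in all 9 fits. Bmp4, a ligand, differed by -1.35, the BMP receptors Bmpr1a and Bmpr2 by -0.67 and -0.51, and the intracellular Smad6 and Smad3 by -1.17 and -1.06, beside Ccn2 above. Every early array of Acvr1b was below every control. Bmp4 was called in 2 of the 9 fits and Bmpr1a, Bmpr2, Smad6, Smad3 and Ccn2 in 1. With the mean of its probe sets Bmpr2 differed by -0.02 (adjusted p = 0.945) and Smad3 by -0.93 (adjusted p = 0.121), and Bmpr1a was not called with the replicate block (adjusted p = 0.0582). The count was 1 without control 2, control 3, early 1, early 2, late 1 or late 2, 2 without control 1, and 4 without late 3. In the atrophy programme 0 of 24 genes were higher and 3 lower (12.5%, beside 6.23% of all genes), Mylk4, Smad3 and Fbxo31. Without early 3, 6 were lower and 3 higher, and 0 were lower without early 1, early 2, late 1 or late 2. Fbxo31 differed by -0.51 with the mean of its probe sets (adjusted p = 0.173). It was called in 1 of the 9 fits and was not called with the replicate block. The ubiquitin ligases Fbxo32 and Trim63 that are the programme's best known members differed by 0.72 and 0.75 (adjusted p = 0.178 and 0.0789). Fbxo32 was above its controls, at 9.57 to 9.84, in all induced arrays, at 11.79, 12.22 and 10.88 in early and 10.89, 10.41 and 11.41 in late.

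Among genes that regulate mitochondrial number and shape, 0 of 30 were higher and 6 lower (20%, beside 6.23% of all genes), with a median of -0.51. Ppargc1a (PGC-1alpha), the coactivator of mitochondrial biogenesis, read 7.38, 8.24 and 8.56 in early against 9.78, 9.73 and 9.29 in late arrays, with controls at 8.52 to 8.81 (-1.54 ± 0.29, adjusted p = 0.0199, and 0.0551 without late 1). Mfn2, which fuses outer membranes, read 11.73, 11.95 and 12.06 against 13.20, 12.72 and 12.75 (-0.98 ± 0.17, adjusted p = 0.0161), with controls between at 12.20 to 12.40. Fndc5, a membrane protein under PGC-1alpha control, differed by -1.56 ± 0.27, Mfn1 by -0.61 and Opa1, of the inner membrane, by -0.60. Mfn2 was called in 7 of the 9 fits, Ppargc1a and Fndc5 in 6, Mfn1 in 2 and Opa1 in 1. Neither Mfn1 nor Opa1 was called with the mean of its probe sets (adjusted p = 0.0526 and 0.0938), nor Opa1 with the replicate block. Prkaa2, a catalytic subunit of the energy sensor AMPK, differed by -0.76 on its brightest probe set and by 0.43 and 1.18 on its other 2, so its direction is uncertain. The count of 6 was 0 without early 2, 1 without early 1 or late 2, 2 without late 1 and 10 without early 3. None of 33 complex I genes was called (limma; 1 lower without early 3), and of 42 genes of complexes II to V the 1 called was Sdha (-0.78). Of 45 genes of the citrate cycle and fatty acid oxidation 1 was higher, Acads, and 3 lower, Suclg2, Etfdh and Lpl, and of 31 glycolysis and glycogen genes 1 was lower, Phka1 (-0.91), with 10 lower without early 3. None of these 6 genes was called in more than 2 of the 9 fits, and Sdha, Acads, Etfdh and Lpl were not called with the replicate block. Without early 3, 8 of the 45 were lower.

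The clock and its output genes were lower in early muscle in 8 of 18 cases (44.4%, beside 6.23% of all genes) and higher in 0, with a median of -0.80. The 8 were Tsc22d3, Per3, Usp2, Rora, Nr1d2, Tef, Cry2 and Hlf, from -0.73 to -2.64. Tsc22d3, a glucocorticoid-induced gene, read 10.12, 10.19 and 10.20 in early against 11.88, 11.70 and 11.04 in late arrays (-1.37 ± 0.26, adjusted p = 0.0206). Per3, a clock repressor, read 6.00, 5.45 and 6.82 against 8.02, 7.88 and 7.06 (-1.56, adjusted p = 0.0364), and late 3 was in both genes the lowest late array. Dbp, the PAR bZIP output with a strong daily rhythm, read 8.92, 9.22 and 9.81 in early, 12.12, 12.28 and 8.86 in late and 11.71 to 11.82 in control arrays, and was not called (adjusted p = 0.145). Late 3 thus lay with the early arrays in Dbp. The time of day at death is not given in the sources used here, and its part was not tested. Tsc22d3 was called in 5 of the 9 fits and the other 7 in 2. With the mean of their probe sets Rora, Tef and Per3 were not called (adjusted p = 0.411, 0.715 and 0.0519), and Tsc22d3 differed by -0.87 and Nr1d2 by -1.49. With the replicate block 1 of the 8 was called. Without late 3, 10 of the 18 were called lower, where 4.17% of all genes were. Without early 1, early 2, late 1 or late 2 the count was 0, and it was 1 without any one control.

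Excitation-contraction coupling had 7 of 31 genes lower and 2 higher (22.6% and 6.45%, beside 6.23% and 5.31% of all genes). Clcn1, the chloride channel that keeps fibres from firing repeatedly, read 7.78, 8.47 and 8.22 in early against 9.44, 9.48 and 9.31 in late arrays, with controls at 8.54 to 8.81 (-1.25 ± 0.18, adjusted p = 0.0108), and was kept in all 9 fits. Cacna1s, the voltage sensor of the tubule, differed by -0.79 and Ryr1, the calcium release channel, by -0.70 (adjusted p = 0.0328 and 0.0352), while the channel's beta subunit Cacnb1 and the junctional protein Jsrp1 were higher, by 0.89 and 0.97. Cacna1s and Ryr1 were called in 1 of the 9 fits, Jsrp1 in 2 and Cacnb1 in 4. With the mean of its probe sets Ryr1 differed by -0.11 (adjusted p = 0.766) and Cacnb1 by 0.41 (adjusted p = 0.12), and Cacnb1 by 0.25 (adjusted p = 0.4) without shared probe sets. Ryr1 was not called with the replicate block. Mylk2, the fast muscle light chain kinase, read 10.26, 10.15 and 9.96 against 11.72, 11.07 and 11.15 (-1.19 ± 0.20, adjusted p = 0.0159), with controls at 10.18 to 10.61, so that late arrays were the ones away from control, and it was called in 8 of the 9 fits. The count of 7 was 1 without early 2, 2 without early 1, late 1 or late 2, 3 without late 3 or any one control, and 4 with the replicate block. Without early 3, 6 genes of this list were higher. No slow fibre contractile gene of 17 was called (limma; 3 higher and 1 lower without early 3), although Myh7, slow myosin, had a difference of -4.92 ± 2.79, because it ranged from 2.78 to 10.96 within the early and from 5.63 to 13.37 within the late arrays. Mylk2 was the 1 fast fibre gene of 21 called.

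Of 51 matrix proteins and enzymes other than collagens 3 were called higher in early muscle (5.88%, near the 5.31% of all genes), and 14 without early 3. Mfap2, a microfibril protein, read 8.65, 8.07 and 7.51 in early, 5.15, 6.00 and 6.01 in late and 7.53 to 8.27 in control arrays (2.35 ± 0.34, adjusted p = 0.0108). Cthrc1, secreted in growing and remodelling tissue, read 7.37, 7.09 and 7.03 against 5.62, 5.14 and 5.79, with controls at 7.73 to 8.59 (1.65 ± 0.25, adjusted p = 0.0115). Both were kept in all 9 fits, and in both the late arrays were the lowest of all 9. Hspg2 (perlecan) was higher (1.27, adjusted p = 0.0432, in 2 of the 9 fits and not with the replicate block, the mean of its probe sets or without shared probe sets), and Prelp, a leucine-rich proteoglycan, was the 1 lower of 51 genes, at 8.83, 8.74 and 8.61 against 10.88, 10.66 and 9.98, with controls at 8.75 to 8.98 (-1.78 ± 0.22, adjusted p = 0.00578). Without shared probe sets Prelp differed by -0.35 and was not called (adjusted p = 0.145), and with the mean of its probe sets by -1.06 (adjusted p = 0.0133). Of 21 collagens 1 was called higher, Col16a1 (0.59, in 1 of the 9 fits, with 6 called without early 3), while the list's median was 0.66. Over the control mean its medians were -0.23, 0.04 and -0.54 in early and -1.45, -0.53 and -0.56 in late arrays. Below every control lay 21, 19 and 16 of the 21 in late 1, 2 and 3, where 36.8%, 33.3% and 30.9% of all genes did so. The difference thus came with low late values and not with early values above control. Col3a1 read 14.94, 15.03 and 14.57 in early against 13.35, 14.59 and 14.31 in late arrays (adjusted p = 0.107), with late 1 the lowest. Imprinted genes of postnatal growth had 0 of 19 called by limma with all arrays, 4 without early 3, 2 without late 1, and 2 with the replicate block, with a median of 0.42. In cholesterol and fatty acid synthesis 3 of 31 were higher, Mvd (1.81), Insig1 (1.65) and Fdps (1.03), all of the sterol branch, and 2 lower, Acacb (-0.88) and Me1 (-0.84). Mvd was called in 6 of the 9 fits, Acacb in 4, Insig1 and Fdps in 3 and Me1 in 2, and Fdps was not called with the replicate block. None of the 31 was called without late 1, late 2 or early 2, 1 was higher without control 2, control 3 or early 1, and 6 and 8 were higher without late 3 and early 3.

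Few genes of protein turnover and stress were called with all arrays. Of 37 proteasome genes 1 was higher, Psmd11 (0.78), and 11 were without early 3 and 4 with the replicate block, with a median of 0.24. Psmd11 was not called with the mean of its probe sets (adjusted p = 0.0678) or without shared probe sets (adjusted p = 0.115). Of 34 autophagy and lysosome genes 3 were higher, Wipi1, Atg4b and Ctsa (0.81 to 0.99), and 2 lower, the initiating kinases Ulk1 and Ulk2 (-0.87 and -1.02), and Atg4b differed by 0.17 with the mean of its probe sets (adjusted p = 0.37). In the same list 14 were higher without early 3, 5 with the replicate block and 0 without early 2 or late 2, and Ulk1 was not called with the replicate block or the mean of its probe sets. Of 35 cytosolic heat shock genes 2 were higher, Hspb1 (1.58) and Stub1 (0.72), with 8 higher without early 3. Nfe2l2 (NRF2), the regulator of antioxidant genes, and Gstm1 were the 2 called of 28 antioxidant genes, both lower (-0.89 and -0.81), neither with the replicate block, and 11 were higher without early 3. Gstm1 was also not called with the mean of its probe sets (adjusted p = 0.062). Fas was the 1 called of 20 apoptosis genes (-0.80), where 4 were higher and 2 lower without early 3. Serping1 and Cp were lower and C1qa higher among 13 complement and acute phase genes, and Cp was not called with the mean of its probe sets (adjusted p = 0.062). Cdk4 was higher (0.91) and Dut lower (-0.50, not called with the replicate block) among 32 cell cycle genes, and Eif3b was the 1 called of 36 ribosome and translation genes (0.73). Eif3b was called in 8 of the 9 fits, Wipi1 and Atg4b in 6, Ctsa and Ulk2 in 4, Fas in 3, Ulk1, Serping1, Cp and Cdk4 in 2, and Psmd11, Hspb1, Stub1, Nfe2l2, Gstm1, C1qa and Dut in 1.

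Markers of other cells were read beside these results, and their part in them was not tested. Of 21 macrophage markers that passed the filter, 1 was called higher, C1qa, at 9.80, 8.60 and 8.16 in early against 6.57, 7.45 and 7.44 in late arrays (1.70 ± 0.46, adjusted p = 0.0468). The median of the 21 over the control mean was 0.83, 0.68 and -0.22 in the early arrays and 0.09, 0.12 and 0.02 in the late ones. Early 3 lay above the highest control in 0 of the 21, early 1 in 18 and early 2 in 14, where 20.9%, 37.3% and 34.3% of all genes did so. Without early 3, 9 of the 21 were called higher, where 15.9% of all genes were. C1qa was not called with the replicate block. Of 18 listed T and NK cell markers 2 passed the filter, Cd28 and Thy1, and neither was called. Of 11 B and plasma cell markers 2 passed, and Ighm, an immunoglobulin chain, ranged from 6.05 to 10.92 within the early and from 7.86 to 12.28 within the late arrays. No called gene was found among 10 skeletal muscle fibre, 4 neutrophil and mast cell, 2 erythroid and 7 tendon markers (limma; the fibre and tendon lists had 1 higher with 1 lower and 1 lower without early 3). Myh11, smooth muscle myosin, was lower in early, at 7.31, 7.24 and 7.38 against 8.78, 8.55 and 8.43 (-1.28 ± 0.15, adjusted p = 0.00578), with controls between at 7.67 to 8.05, and was the 1 called of 12 smooth muscle and pericyte markers. Among 18 endothelial markers Vwf and Lyve1 were lower (-1.04 and -1.13) and Plvap higher (0.86). Smoc2 and Scara5 were lower among 15 fibroblast markers (-0.89 and -0.97), whose median was 0.28, with 9 differences positive and 6 negative. Lpl was lower among 17 adipocyte markers, whose median was -0.64. Over the control mean these 17 had medians of -0.77, -1.39 and -1.22 in early and -0.71, 0.35 and -1.06 in late arrays. Only late 2 was thus above control, and late 1 and late 3 lay near or within the range of the early arrays. Mbp was lower among 7 Schwann cell markers (-0.80) and Vcam1 among 9 satellite cell markers (-0.97). Myh11 was kept in all 9 fits, Smoc2 was called in 7 and Scara5 in 5, the others named in 2 or fewer, and Lyve1, Lpl, Mbp and Vcam1 not with the replicate block. Smoc2, Lyve1 and Mbp were not called with the mean of their probe sets (-0.39, -0.63 and -0.40). Without early 3, 5 of the 9 satellite cell markers were lower.

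The controls have the age of the early group and lack induction. In the called genes their mean lay mostly between the early and late means. Of the 515 genes higher in early, the control mean was beyond late for 51, between and nearer late for 257, between and nearer early for 178, and beyond early for 29. For the 604 lower genes these counts were 20, 244, 312 and 28. Called genes were selected for a gap between early and late, which by itself favours a control mean inside that gap. The same counts over all genes tested are not given. The control positions therefore describe the called genes and do not test whether controls are intermediate. Taken over the genes called higher, the median over the late mean was 1.26, 1.05 and 0.74 in early 1, 2 and 3, and over those called lower it was -1.10, -0.91 and -0.65. Early 3 was in the fit that called these genes, so these medians describe its size and do not test its side. The genes called under all 21 other ways of fitting numbered 33, of which 25 were higher and 8 lower in early. Among the 25 were Sdf2l1, Creld2, Mydgf, Pdia3, Pdia4, Pdia6, Sec61a1, Ssr2, Ddost, Sec22b, Sec24d and Copg1, and among the 8 were Cish, Il33, Myh11 and Uaca. Uaca, a regulator of apoptosis bound to the cytoskeleton, read 9.65, 9.53 and 9.73 in early, 11.16, 11.08 and 10.83 in late and 9.93 to 10.18 in control arrays (-1.39 ± 0.14, adjusted p = 0.00498). It was named after its values were seen, from the 33.

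**Figure D5:**
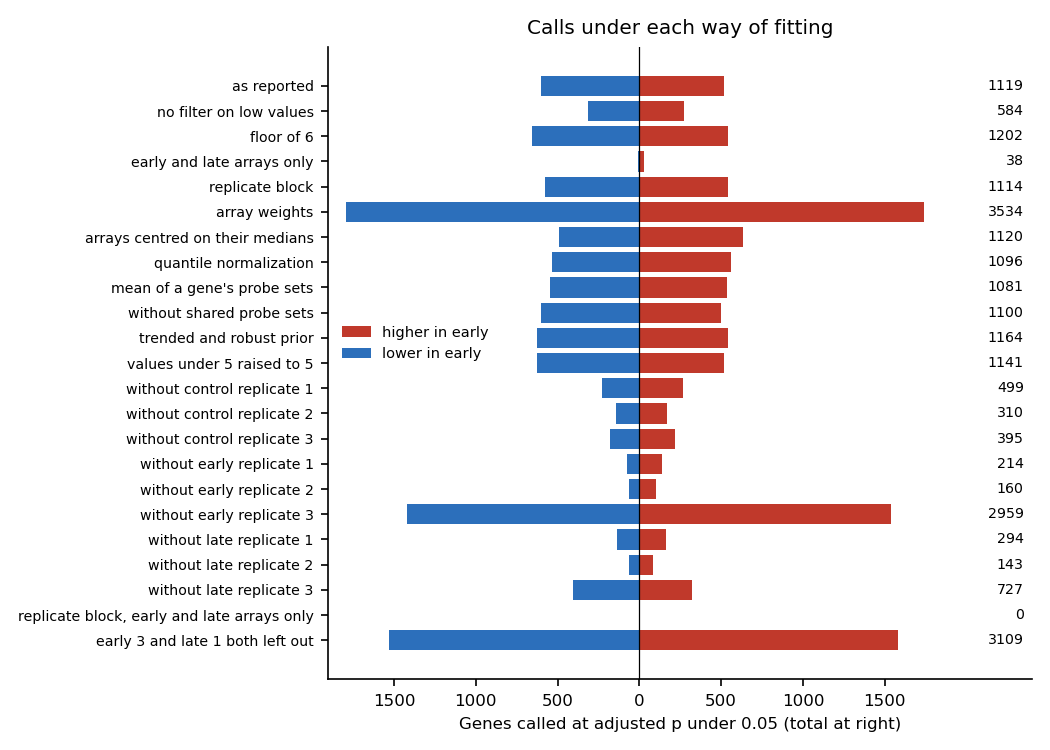
Number of genes called at adjusted p under 0.05 (horizontal; higher in early to the right in red, lower to the left in blue, total at the right edge) as reported and under each alternative fit of 1 probe set or mean per gene. The total was 1119 as reported, 38 with the induced arrays alone, 2959 without early 3 and 3534 with array weights.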

How the data were processed

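The deposited log2 values are the authors', made with GCRMA per the submitters' processing notes. The sources used here give neither a version nor settings. In its usual form GCRMA subtracts background by base content, puts all arrays on 1 distribution and gives 1 value per probe set, so it removes any shift that all genes share. Probe sets naming several genes (932) or none (9211) and 64 control probe sets were left out. A probe set needed a log2 value above 5 in at least 3 arrays (16048 passed), and the one with the highest mean stood for its gene. Of the 1119 called genes, 493 had several, and in 110 another had the opposite sign, in 21 of them at an unadjusted p under 0.05. Groups came from the labels. One mean per group was fitted to 9 arrays with limma 3.58.1 in R 4.3.3 (lmFit, eBayes; 6 residual and 2.84 prior degrees of freedom). The code was also run on simulated independent values with the same spread in all groups. That run cannot show how the fit behaves with unequal spreads or an array that stands apart. An exact test of 3 against 3 cannot go below 0.1. The number of arrays limits the precision.

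Named were H2-K1 and H2-D1, the 12 largest rises and falls among called, non-overlapping genes with both means at least 5, 5 each way with 1 mean under 5, and up to 6 members with the smallest p per list; other genes named are members of the lists or of counts. The members and lists were chosen with earlier results of these data known. Deviations of same-numbered early and late arrays correlated at 0.168, 0.201 and 0.16, all above 0.1, so the numbers were taken to pair them without a label that explains the pairing. With same-numbered control arrays the correlations were 0.35, 0.11 and -0.0391 for early and 0.0847, -0.165 and -0.11 for late, so not all were above 0.1. The block was an alternative and was not part of the main fit. Other alternatives covered filters, scaling, probe set choice, array weights and left-out arrays.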

Additional observations from a re-analysis of the deposited data

How the results depend on the processing

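Every alternative below was run on the count of called genes, H2-K1, the named genes and the lists. The count of 1119 was 584 with no filter on low values, 1803 of 16048 with every probe set on its own, 38 with the early and late arrays only, 3534 with array weights, and 143 to 2959 when 1 array was left out. Chosen after seeing the data, the replicate block on the 6 induced arrays gave 0 and leaving out early 3 and late 1 together gave 3109. The count stayed within 1096 to 1202 with quantile normalization, array centring, a floor of 6, values raised to 5, and a trended and robust prior, and was 1081 with the mean of a gene's probe sets and 1100 without shared probe sets. The replicate block over all 9 arrays gave 1114, of which 865 were among the 1119. Among 163 called genes on the lists or named, it ended 38 calls and no filter on low values ended 76. The mean of a gene's probe sets ended 22 and turned 1, and each other setting over all 9 arrays ended at most 7. The H2-K1 difference was 0.95 with array weights and 1.32 with the mean of its probe sets, both passing, and 0.413 to 1.01 when 1 array was left out, not passing; it has no value without shared probe sets. Prkaa2 turned to 0.28 with the mean of its probe sets (adjusted p = 0.589), because its other probe sets have the opposite sign. With 3 arrays a group, one of them early 3, differences carried by early 1 and early 2 alone were mostly not called; the cause of its distance was not tested. Fits that leave out early 3 rest on 2 early arrays.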

Other observations

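Of 1905 kept probe sets that name no gene or several, 49 were called higher and 91 lower in early muscle by the same fit.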
